A study of Mus musculus with 9 samples.

Results

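The late cornified envelope genes and the small proline-rich genes were described here together with loricrin, involucrin and 3 further envelope genes, as measured by RNA sequencing of mouse ear epidermis. Members were the genes whose symbols begin with Lce or Sprr followed by a digit, plus Lor, Ivl, Kprp, Crct1 and Lelp1. The rule found 43 of the 52550 genes in the count table, and it used no measured value. They comprised 14 Lce1 genes, 6 Lce3 genes, Lce6a, 2 Sprr1 genes, 13 Sprr2 genes, Sprr3, Sprr4 and the 5 genes named singly. The annotation types Sprr2c-ps as a processed pseudogene, Sprr2g as a polymorphic pseudogene and Sprr2j-ps, despite its symbol, as protein-coding. All 43 lie in the epidermal differentiation complex, at chr3:92080271-93019060 of the GRCm38 build, a stretch of 938.8 kb that holds 23 other genes of the table.

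In the outermost living layer of the epidermis the keratinocyte builds a cornified envelope, an insoluble protein shell that replaces its plasma membrane and carries much of the mechanical and barrier function of skin. Involucrin is laid down early as a scaffold, loricrin makes up most of the mature shell, and small proline-rich proteins act as cross-bridging partners, all joined by transglutaminases. Late cornified envelope proteins are incorporated last. Members of the LCE3 group and SPRR genes are known to be induced by barrier disruption and in psoriasis, whereas LCE1 genes belong to normal stratified skin.

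All mice were wild-type C57BL/6 males (C57BL/6J in the methods) aged 8 weeks, and the tissue was the epidermal sheet of the ear. The VAS + H2O group received vaseline on the ear for 5 days and water by gavage for 10 days. The IMQ + H2O group received imiquimod cream, a Toll-like receptor agonist that produces a psoriasis-like dermatitis, for 5 days with the same water gavage. The IMQ + XYF group received imiquimod with a gavage of 23.3 mg/g Xiao-Yin-Fang (XYF), a decoction of herbs, for 10 days. Each group had 3 libraries. The methods name 2 mice as the source of the epidermal sheets without saying whether that was per library, and no source states that replicates were separate animals, so p-values measure the spread between libraries.

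Library totals ran from 30298275 to 64771160 counts, so that 3 counts, taken as the detection floor, corresponded to 0.0463 to 0.0990 counts per 1000000 (CPM). Levels are given as CPM scaled by trimmed mean of M values (TMM) factors, and differences as log2 fold changes ± standard error (SE) from edgeR's quasi-likelihood test, with p-values adjusted over all genes tested. A gene was called where the adjusted p was at most 0.05 and the log2 fold change at least 1 in size. Keratinocyte markers summed to 46676 CPM or more in every library, while the 7 markers of dermal fibroblasts and the 8 of cartilage reached 645 and 482 CPM in VAS + H2O replicate 2. In IMQ + H2O they lay at 47.97 to 53.2 and 40.8 to 85.96 CPM, below every library of the other groups. IMQ + H2O replicate 3 stood apart from its group: the chi-square per gene was 78.1 and 82.7 against its own replicates, and 26.1 to 46.7 for all other pairs within a group. In bulk tissue, fewer cells of a layer and less RNA per cell cannot be told apart.

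The starts of 37 of the 43 members were matched to RefSeq promoter windows (GRCm38.p6), which run from 250 bases before to 50 after the start. The upstream 250 bases of 9 members are shown because the results below turn on these genes. They are written 5′ to 3′ on the gene's strand, with capitals at the letters TGANTCA (the AP-1 site, its own reverse complement), ATGCAAAT or its reverse complement ATTTGCAT (the octamer), and TATAAA or TTTATA (the TATA box).
Lor, chr3:92083143-92083392, minus strand: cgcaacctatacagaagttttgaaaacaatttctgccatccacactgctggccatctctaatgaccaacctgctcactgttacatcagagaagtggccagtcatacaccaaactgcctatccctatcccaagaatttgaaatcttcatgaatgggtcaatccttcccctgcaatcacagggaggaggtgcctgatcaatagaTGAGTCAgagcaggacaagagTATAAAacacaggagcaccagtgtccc
Ivl, chr3:92573736-92573985, minus strand: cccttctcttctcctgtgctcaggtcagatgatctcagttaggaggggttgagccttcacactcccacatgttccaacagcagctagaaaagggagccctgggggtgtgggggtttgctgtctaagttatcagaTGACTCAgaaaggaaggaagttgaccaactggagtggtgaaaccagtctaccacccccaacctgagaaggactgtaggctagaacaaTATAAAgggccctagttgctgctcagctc
Sprr1b, chr3:92438780-92439029, minus strand: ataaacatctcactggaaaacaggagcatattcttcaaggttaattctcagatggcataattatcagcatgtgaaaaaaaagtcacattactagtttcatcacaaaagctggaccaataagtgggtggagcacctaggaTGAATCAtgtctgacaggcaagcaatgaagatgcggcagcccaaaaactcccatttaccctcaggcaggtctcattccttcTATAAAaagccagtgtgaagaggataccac
Sprr2d, chr3:92338890-92339139, plus strand: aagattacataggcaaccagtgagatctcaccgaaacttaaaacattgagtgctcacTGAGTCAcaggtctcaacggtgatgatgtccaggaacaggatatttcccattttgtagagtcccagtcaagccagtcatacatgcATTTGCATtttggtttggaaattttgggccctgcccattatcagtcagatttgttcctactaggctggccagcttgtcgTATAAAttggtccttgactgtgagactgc
Sprr2h, chr3:92385435-92385684, plus strand: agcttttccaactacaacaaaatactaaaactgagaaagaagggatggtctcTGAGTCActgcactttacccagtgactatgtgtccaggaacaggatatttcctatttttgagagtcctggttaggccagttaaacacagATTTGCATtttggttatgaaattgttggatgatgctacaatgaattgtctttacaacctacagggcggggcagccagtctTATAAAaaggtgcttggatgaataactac
Sprr2a1, chr3:92215585-92215834, plus strand: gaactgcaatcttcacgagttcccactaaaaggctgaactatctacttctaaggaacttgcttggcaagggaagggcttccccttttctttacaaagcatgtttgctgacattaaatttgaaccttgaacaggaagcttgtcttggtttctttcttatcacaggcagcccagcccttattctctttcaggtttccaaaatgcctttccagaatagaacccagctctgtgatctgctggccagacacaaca
Lce1c, chr3:92678997-92679246, plus strand: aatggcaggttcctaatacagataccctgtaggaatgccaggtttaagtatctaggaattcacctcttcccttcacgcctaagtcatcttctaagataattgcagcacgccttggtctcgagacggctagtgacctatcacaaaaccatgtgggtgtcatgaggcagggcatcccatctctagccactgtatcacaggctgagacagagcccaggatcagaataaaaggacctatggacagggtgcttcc
Lce1m, chr3:93019062-93019311, minus strand: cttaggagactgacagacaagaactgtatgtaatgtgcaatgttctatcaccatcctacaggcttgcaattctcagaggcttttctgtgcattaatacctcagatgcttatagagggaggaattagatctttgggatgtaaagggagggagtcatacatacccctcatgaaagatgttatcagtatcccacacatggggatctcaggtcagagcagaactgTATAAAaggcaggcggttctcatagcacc
Lce3d, chr3:92957140-92957389, plus strand: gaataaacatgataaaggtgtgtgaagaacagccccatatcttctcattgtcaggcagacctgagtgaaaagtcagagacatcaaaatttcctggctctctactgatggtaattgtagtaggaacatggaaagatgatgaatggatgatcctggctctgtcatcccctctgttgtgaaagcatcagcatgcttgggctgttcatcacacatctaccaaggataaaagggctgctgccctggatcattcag

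Across all 37 windows the AP-1 letters were found in 11 members, against 7.81% of the 32851 windows of the genome. All motifs were searched on both strands, and Sprr1a alone had matches of 2 motifs that overlapped (AP-1 and CACCC). The AP-1 members were Lor, Ivl, both Sprr1 genes and 7 of the 10 Sprr2 genes with a window. None of the 13 Lce1 windows and none of the 6 Lce3 windows held them. The same 7 Sprr2 genes (Sprr2b, Sprr2d, Sprr2e, Sprr2f, Sprr2h, Sprr2i and Sprr2k) shared one layout. Counted from the start, their AP-1 letters began at -198 to -193, the octamer at -112 to -108 and the TATA letters at -29. Sprr2k also had a further AP-1 match that began at -182. Some of these windows resemble each other, so the counts are not of unrelated promoters. Compared base by base without gaps, 88% of bases were the same in Sprr2d and Sprr2e. The share was 72.3% for Sprr2e and Sprr2i, 71.7% for Sprr2d and Sprr2i, 67.3% for Sprr2h and Sprr2k, and less for other pairs. The octamer letters occurred in 7 members against 1.74% of all windows, and the TATA letters in 16 against 13.6%. Other motifs searched were the letters CACCC of Krüppel-like factors (17 members, 57.5% of all windows), AGGAAG of ETS factors (18, 35.4%), AACCNGNT of Grainyhead-like factors (9, 8.99%), TTCNNNGAA of STAT factors (3, 8.30%), TTGCNNAA of C/EBP factors (2, 10.8%), the NF-kappaB motif (1, 20.7%), the E-box CACGTG (1, 7.15%) and the interferon-responsive element (0, 3.44%).

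Sprr2a1, Sprr2a2 and Sprr2a3 held none of the AP-1, octamer or TATA letters in their windows, and the windows of Sprr2a1 and Sprr2a2 were identical over all 300 bases. These windows are not placed like those of the other Sprr2 genes. The longest run that Sprr2a1 shared with Sprr2b, accagcccattacaggga, lay at 5 to 22 from the start in Sprr2a1 and at -80 to -63 in Sprr2b. A match is only a match of letters, and its absence says only that the letters are not in that window.

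The 42 members other than Sprr2a2 summed to 2673 ± 229 CPM in VAS + H2O (SD, n = 3), against 3925 ± 272 CPM in IMQ + H2O and, with XYF, 3827 ± 689 CPM. Sprr2a2 was left out of sums because its gene model overlaps that of Sprr2a1 on the same strand, and their levels kept a ratio of 0.912 to 0.927 in all 9 libraries. Within this sum the makeup was different between vaseline and imiquimod. Lce1 genes gave 40.9 ± 2.895% of the members' counts under vaseline, 16.2 ± 9.603% under imiquimod and 17.5 ± 4.49% under imiquimod with XYF. Sprr2 genes gave 2.59 ± 1.01%, 24.95 ± 9.84% and 27.9 ± 6.37% in the same order, and Sprr1 genes 5.37 ± 0.364%, 24.9 ± 11.9% and 21.4 ± 10.1%. Lor gave 27.99 ± 2.68%, 14.8 ± 7.09% and 15.1 ± 1.16%.

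Per kilobase of annotated exon, Lor led the order in VAS + H2O at 423 ± 76.4 CPM per kb (SD, n = 3), followed by Lce1a1 at 227 ± 20.3 and Lce1c at 223 ± 16.5 CPM per kb, a pair that did not differ beyond their spread. In IMQ + H2O the first places were held by Sprr1b at 699.5 ± 348, Sprr1a at 498 ± 257 and Lor at 326 ± 159.6 CPM per kb, and in IMQ + XYF by Sprr1b at 495 ± 207, Sprr1a at 449.7 ± 133 and Lor at 326 ± 81.7 CPM per kb. In both imiquimod groups the mean ± SD ranges of these neighbours overlapped. The order depends on annotated exon length, which is 3003 bases for Sprr2a1 and 830 for Sprr1b. Before division by length, Sprr2a1 had 640 ± 167 CPM and Sprr1b 581 ± 289 CPM in IMQ + H2O. In IMQ + XYF they had 825 ± 444 and 411 ± 172 CPM.

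**Figure D1:**
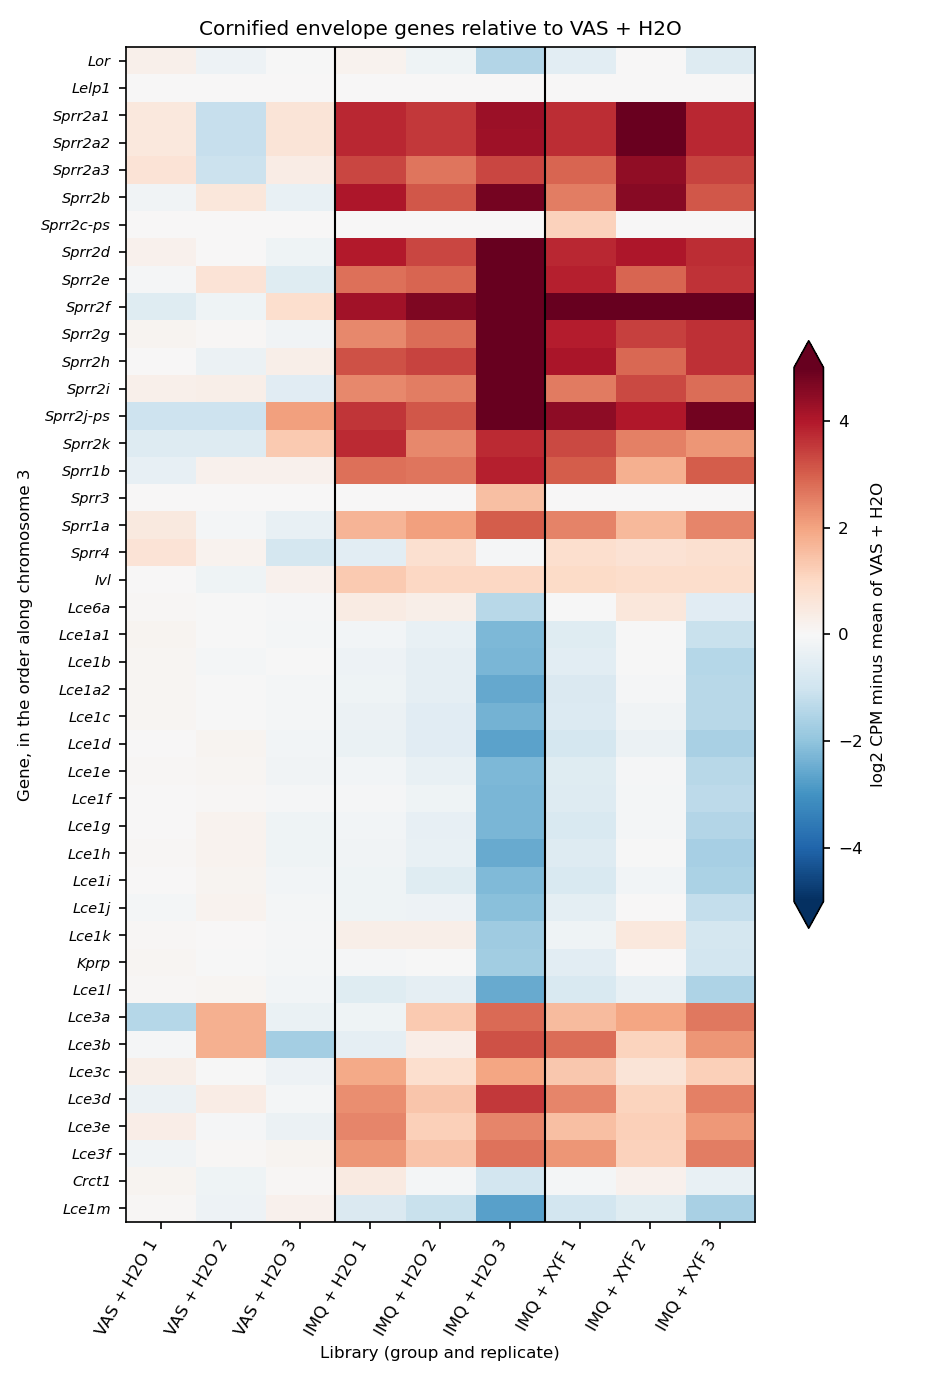
Heat map of the 43 genes in their order along chromosome 3 (rows) in the 9 libraries (columns). Colour is log2 CPM minus the mean of VAS + H2O, red above and blue below, and values beyond 5 take the end colour. The Sprr2 and Sprr1 genes other than Sprr2c-ps are red in all 6 imiquimod libraries, and the Lce1 block is darkest blue in IMQ + H2O replicate 3.

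Imiquimod cream with water gavage was first compared with vaseline. The controls received vaseline, so the cream base, the drug and the dermatitis cannot be told apart in this comparison. Of 39 members tested, 18 rose and none fell, against 7.68% of all 18009 genes called in either direction, 3.64% called higher and 4.04% called lower. The members that rose were 11 of 12 tested Sprr2 genes, both Sprr1 genes, 4 of 5 tested Lce3 genes and Ivl. Of these, 6 Sprr2 genes were called without VAS + H2O replicate 1 and 6 without VAS + H2O replicate 2, and 1 Lce3 gene was called without VAS + H2O replicate 2. None of the 14 Lce1 genes passed, and all 14 estimates were below 0. In 19 members the groups did not overlap and IMQ + H2O was higher, as in 23.4% of all genes tested. The median over the tested members was 1.10, against -0.029 over all genes tested. Lelp1, Sprr3, Sprr2c-ps and Lce3b did not pass the filter on low counts, which asked for 3 libraries at 0.269 CPM or more. Sprr2b, Sprr2f, Sprr2j-ps and Sprr2k reached that level in all 3 IMQ + H2O libraries and in 1 or 0 VAS + H2O libraries, so a difference was needed for their entry. Lce3a reached it in 2 IMQ + H2O libraries and 1 VAS + H2O library. The other 34 tested members reached it in all 3 VAS + H2O libraries, and 15 of them were called. Without VAS + H2O replicate 2 the count of members called was 10, and leaving out any other library gave 12 to 18. Over all genes, 717 of 18608 tested were called without VAS + H2O replicate 2. Leaving out any other library gave 711 to 1314 calls over all genes, from 1383 with all libraries.

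Among the Sprr2 genes, which encode short cross-linked proteins built of proline-rich repeats, Sprr2a2 and Sprr2a1 had the highest levels per kilobase in each group. In IMQ + H2O their means were 239 and 213 CPM per kb. Sprr2a1 stood at 61.3, 19.3 and 67.3 CPM in the VAS + H2O libraries, 591, 503 and 826 CPM in those of IMQ + H2O and 555, 1338 and 583 CPM in those of IMQ + XYF. Every imiquimod library was above every vaseline library, and the log2 fold change between IMQ + H2O and VAS + H2O was 3.69 ± 0.48, adjusted p = 0.00793, or 12.9-fold. Sprr2a2 gave nearly the same values (log2 fold change 3.68 ± 0.48, adjusted p = 0.00793). As 96.3% of the 50-base windows of Sprr2a1 transcripts also occur in another gene, the split of reads between the pair is uncertain. Sprr2a3 lay at 6.91, 2.03 and 5.56 CPM in the VAS + H2O libraries, 44.2, 27.9 and 43.4 CPM in those of IMQ + H2O and 32.1, 93.4 and 45.4 CPM in those of IMQ + XYF. It rose by 2.97 ± 0.43 on the log2 scale (adjusted p = 0.00927), and 61.1% of its windows are shared.

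Outside the Sprr2a genes and Sprr2b, Sprr2 genes share 0 to 12.5% of their windows with another gene. Sprr2h had 7.25, 5.91 and 8.83 CPM in the VAS + H2O libraries, 66.2, 76.5 and 253 CPM in those of IMQ + H2O and 123, 53.8 and 92.6 CPM in those of IMQ + XYF. Its log2 fold change was 4.16 ± 0.58, adjusted p = 0.00866, and IMQ + H2O replicate 3 lay well above its group. Sprr2d had 5.43, 4.73 and 4.07 CPM in the VAS + H2O libraries, 73.8, 48.5 and 164 CPM in those of IMQ + H2O and 64.99, 77.95 and 60.8 CPM in those of IMQ + XYF, with a log2 fold change of 4.31 ± 0.48, adjusted p = 0.00598. In both genes the groups did not overlap and IMQ + H2O was higher, as in 23.4% of all genes tested. Both carry the AP-1, octamer and TATA layout shown above, and its part in the rise was not tested. Sprr2f had 0.148, 0.212 and 0.487 CPM in the VAS + H2O libraries, 5.59, 7.59 and 51.6 CPM in those of IMQ + H2O and 19.03, 10.5 and 10.9 CPM in those of IMQ + XYF. It had the largest estimate of any member with all libraries in the fit, 6.27 ± 1.13 (adjusted p = 0.0143), from a vaseline level near the floor. Without IMQ + H2O replicate 3 its estimate was 4.55. Without VAS + H2O replicate 3 it was 6.94, below that of Sprr2j-ps at 9.95, not called, and that of Sprr2k at 7.92, called.

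Sprr2g stood at 1.37, 1.304 and 1.12 CPM in the VAS + H2O libraries, 6.91, 9.05 and 43.3 CPM in those of IMQ + H2O and 19.96, 13.9 and 16.4 CPM in those of IMQ + XYF, a log2 fold change of 3.95 ± 0.77, adjusted p = 0.0168. Sprr2e stood at 1.06, 1.82 and 0.717 CPM in the VAS + H2O libraries, 7.74, 8.68 and 41.4 CPM in those of IMQ + H2O and 17.1, 8.75 and 14.4 CPM in those of IMQ + XYF, with 4.002 ± 0.79, adjusted p = 0.0177. In both, IMQ + H2O replicate 3 stood far above its fellow replicates. Sprr2i had 0.634, 0.667 and 0.344 CPM in the VAS + H2O libraries, 3.005, 3.35 and 21.3 CPM in those of IMQ + H2O and 3.44, 5.64 and 3.93 CPM in those of IMQ + XYF, and Sprr2b had 0.233, 0.425 and 0.201 CPM in the VAS + H2O libraries, 5.32, 2.703 and 8.82 CPM in those of IMQ + H2O and 1.84, 7.43 and 2.73 CPM in those of IMQ + XYF. Sprr2i rose by 4.05 ± 0.89 (adjusted p = 0.0233) and Sprr2b by 4.28 ± 0.55 on the log2 scale (adjusted p = 0.00754). Sprr2k was the least abundant member called, at 0, 0 and 0.143 CPM in the VAS + H2O libraries, 1.002, 0.364 and 0.995 CPM in those of IMQ + H2O and 0.738, 0.401 and 0.313 CPM in those of IMQ + XYF, and its log2 fold change was 4.03 ± 1.05, adjusted p = 0.0372. Sprr2j-ps had 0, 0 and 0.373 CPM in the VAS + H2O libraries, 1.17, 0.832 and 7.57 CPM in those of IMQ + H2O and 2.25, 1.603 and 2.82 CPM in those of IMQ + XYF. Its groups did not overlap, but it did not pass the test (4.72 ± 1.44, adjusted p = 0.0571).

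Several Sprr2 genes lost their call when 1 library was left out. Sprr2e, Sprr2f, Sprr2g, Sprr2i and Sprr2k were not called without VAS + H2O replicate 1, nor without VAS + H2O replicate 2. Calls over all genes were 857 and 717 in these fits, from 1383. The median of the Sprr2 estimates was 4.03 and 4.12 there, from 4.04. Sprr2i was also not called without VAS + H2O replicate 3, and Sprr2k not without IMQ + H2O replicate 1 or 3. Without IMQ + H2O replicate 3 the log2 fold changes, all still called, were 3.67 for Sprr2d, 3.27 for Sprr2h, 2.76 for Sprr2e, 2.64 for Sprr2g and 2.51 for Sprr2i. The Sprr2k estimate ran from 3.35 without VAS + H2O replicate 1 to 7.92 without VAS + H2O replicate 3, which left vaseline libraries with no count. Sprr2a1, Sprr2a2, Sprr2a3, Sprr2b, Sprr2d and Sprr2h were called in all 6 fits that left out 1 library.

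Of the Sprr1 genes, long used as markers of squamous differentiation, Sprr1b stood at 46.98, 71.6 and 71.9 CPM in the VAS + H2O libraries, 426, 402 and 914 CPM in those of IMQ + H2O and 511, 212 and 509 CPM in those of IMQ + XYF. The lowest imiquimod library was above the highest vaseline library, and the log2 fold change was 3.18 ± 0.38, adjusted p = 0.00663. Sprr1a had 107, 72.02 and 59.7 CPM in the VAS + H2O libraries, 249, 319 and 637 CPM in those of IMQ + H2O and 429.7, 239 and 419 CPM in those of IMQ + XYF, with 2.32 ± 0.39, adjusted p = 0.0123. Neither gene shares any 50-base window with another gene. Ivl, the early scaffold of the envelope, had 159.5, 136 and 186 CPM in the VAS + H2O libraries, 396, 325 and 322 CPM in those of IMQ + H2O and 312, 296 and 290.4 CPM in those of IMQ + XYF. It rose 2.15-fold (log2 1.10 ± 0.14, adjusted p = 0.00743), with the smallest SE of any member in this comparison. Sprr4 was measured at 3.32, 2.305 and 1.09 CPM in the VAS + H2O libraries, 1.38, 3.59 and 1.94 CPM in those of IMQ + H2O and 3.64, 3.42 and 3.62 CPM in those of IMQ + XYF with a log2 fold change of 0.026 ± 0.49, adjusted p = 0.9747.

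The Lce3 genes were scarce in vaseline-treated epidermis, where all 6 together summed to 8.17 ± 1.24 CPM (SD, n = 3). In IMQ + H2O they summed to 32.3 ± 15.2 CPM. Lce3c had 5.81, 4.701 and 3.96 CPM in the VAS + H2O libraries, 17.8, 8.55 and 18.9 CPM in those of IMQ + H2O and 12.2, 7.397 and 11.1 CPM in those of IMQ + XYF, with a log2 fold change of 1.63 ± 0.32, adjusted p = 0.01797. Lce3d had 1.04, 1.698 and 1.204 CPM in the VAS + H2O libraries, 6.596, 3.41 and 15.5 CPM in those of IMQ + H2O and 7.26, 2.84 and 7.69 CPM in those of IMQ + XYF, with 2.69 ± 0.57, adjusted p = 0.0207. Groups of both genes were separate, and IMQ + H2O replicate 2 had the lowest IMQ + H2O value of each. Lce3e stood at 1.25, 0.9401 and 0.774 CPM in the VAS + H2O libraries, 5.56, 2.26 and 5.51 CPM in those of IMQ + H2O and 2.84, 2.28 and 4.501 CPM in those of IMQ + XYF (2.15 ± 0.40, adjusted p = 0.0156). Lce3f stood at 0.592, 0.697 and 0.745 CPM in the VAS + H2O libraries, 3.32, 1.897 and 4.74 CPM in those of IMQ + H2O and 3.33, 1.54 and 4.24 CPM in those of IMQ + XYF (2.28 ± 0.38, adjusted p = 0.01198). Lce3a, near the floor, was not called at 1.51 ± 1.28. Between 12.1 and 49.3% of the windows of Lce3 genes occur in another gene, so that single members are less certain than the family. Lce3c and Lce3e were not called without VAS + H2O replicate 2, and Lce3d was not called when any single VAS + H2O library was left out. Without IMQ + H2O replicate 3 the estimate of Lce3d was 1.92.

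**Figure D2:**
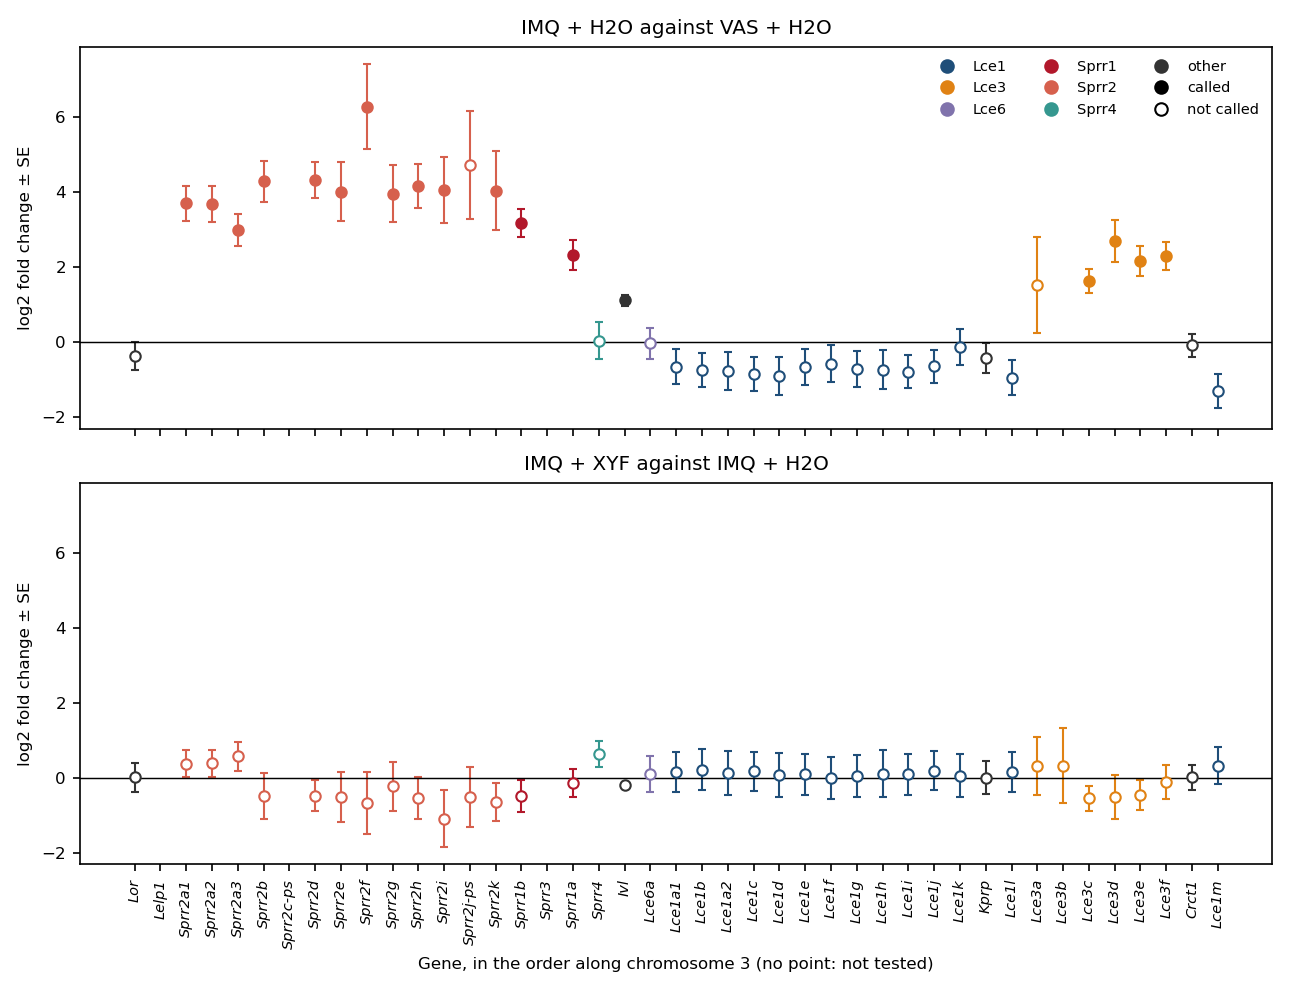
Log2 fold change ± SE (y axis) of each tested gene in its order along chromosome 3 (x axis), for imiquimod against vaseline (upper panel) and for XYF against water under imiquimod (lower panel). Filled points passed the test. The Sprr2, Sprr1 and Lce3 points lie above 0 in the upper panel, the Lce1 points lie between -1.32 and -0.15, and no point is filled in the lower panel.

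The Lce1 genes, by contrast, had estimates from -1.32 to -0.15 with a median of -0.76, and SEs of 0.44 to 0.52. In 10 of the 14 the 3 IMQ + H2O libraries lay below the 3 VAS + H2O libraries, where 21.6% of all genes tested did so. Lce1m had the lowest estimate and the only unadjusted p under 0.05 in the family, where 37.9% of all genes tested had one. It stood at 92.6, 74.7 and 105 CPM in the VAS + H2O libraries, 54.8, 42.1 and 13.6 CPM in those of IMQ + H2O and 47.7, 59.6 and 28.9 CPM in those of IMQ + XYF with a log2 fold change of -1.32 ± 0.45, adjusted p = 0.0796. It is also the Lce1 gene with no shared window, and lies apart from the other 13 beyond the Lce3 genes. Those 13 share 9.12 to 27.1% of their windows with another gene, so that single members are less certain than the family. Lce1a1, which leads the family per kilobase in VAS + H2O, had 176, 155 and 148 CPM in the VAS + H2O libraries, 147, 125 and 33.9 CPM in those of IMQ + H2O and 105, 158 and 73.2 CPM in those of IMQ + XYF (-0.67 ± 0.47, adjusted p = 0.338). Lce1c, which is the sole plus-strand Lce1 gene, had 174, 158 and 151 CPM in the VAS + H2O libraries, 130.3, 109 and 31.4 CPM in those of IMQ + H2O and 100.1, 141 and 60.7 CPM in those of IMQ + XYF (-0.85 ± 0.45, adjusted p = 0.217). Without IMQ + H2O replicate 3 the median of the family was -0.32 and 1 estimate turned positive.

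Loricrin, the main protein of the mature envelope, had 899, 631 and 726 CPM in the VAS + H2O libraries, 832, 636 and 273 CPM in those of IMQ + H2O and 511, 747 and 482 CPM in those of IMQ + XYF. Its groups overlapped and the log2 fold change was -0.39 ± 0.37, adjusted p = 0.484. Kprp, a keratinocyte proline-rich protein, had 333, 309.7 and 290.4 CPM in the VAS + H2O libraries, 297, 307 and 94.1 CPM in those of IMQ + H2O and 216, 313 and 165 CPM in those of IMQ + XYF, with -0.44 ± 0.40, adjusted p = 0.466. Crct1 had 115, 90.7 and 109.5 CPM in the VAS + H2O libraries, 144, 98.5 and 55.1 CPM in those of IMQ + H2O and 96.8, 119.8 and 80.3 CPM in those of IMQ + XYF, with -0.10 ± 0.31, adjusted p = 0.847. In each of these 3 genes IMQ + H2O replicate 3 was the lowest of the 9 libraries. Lce6a was likewise not called, at -0.042 ± 0.41.

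**Figure D3:**
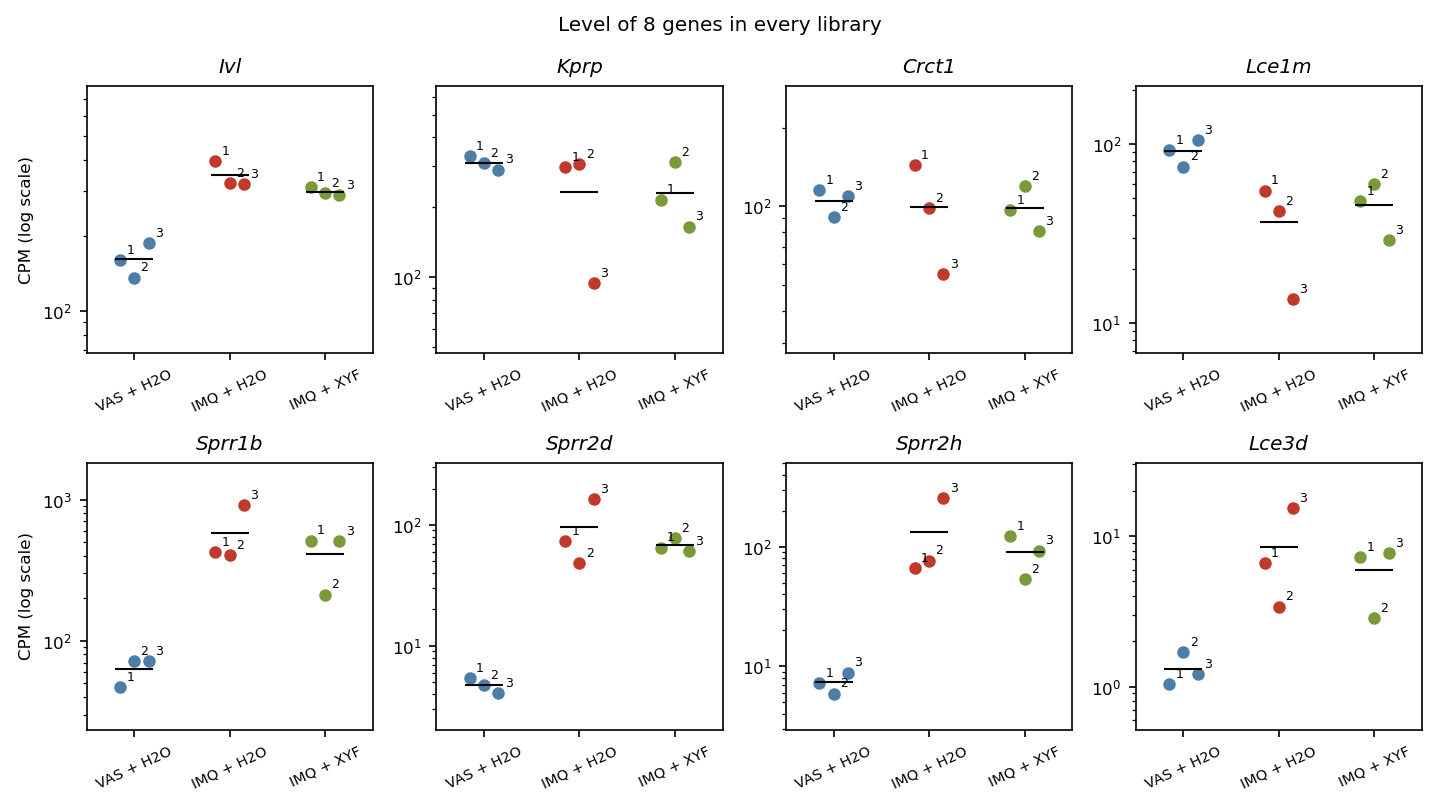
CPM on a log axis (y axis) of 8 genes in each library, by group (x axis). Points are libraries with their replicate numbers and bars are group means. For Ivl, Sprr1b, Sprr2d, Sprr2h and Lce3d every imiquimod point lies above every vaseline point, and Kprp, Crct1 and Lce1m are lowest in IMQ + H2O replicate 3.

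The spread within groups differed between families. The log2 range among the 3 libraries had a median of 0.25 over the 14 Lce1 genes under vaseline, 2.09 in IMQ + H2O and 1.31 with XYF. Over the 12 tested Sprr2 genes it was 1.36, 1.85 and 1.04 in the same order. It was 0.73, 1.27 and 1.06 over the Sprr1 genes and 0.65, 1.30 and 1.04 over 5 Lce3 genes. These ranges include counting error, which is larger at low counts. In the vaseline libraries Sprr2k had 0, 0 and 5 counts and Sprr2j-ps 0, 0 and 13, while every Lce1 gene had 383 or more. IMQ + H2O replicate 3 was the lowest of its group in 14 of 14 Lce1 genes and the highest in 10 of 12 Sprr2 genes, 2 of 2 Sprr1 genes and 4 of 5 Lce3 genes. IMQ + XYF replicate 2 was the highest of its group in 14 of 14 Lce1 genes and the lowest in 2 of 2 Sprr1 genes and 4 of 5 Lce3 genes. The ratio of summed Sprr2 to summed Lce1 CPM was 0.0741, 0.0331 and 0.0866 in the vaseline libraries, 0.891, 0.879 and 7.04 under imiquimod and 1.24, 1.64 and 2.03 under imiquimod with XYF. The ratio of summed Sprr1 to Lor CPM was 0.172, 0.228 and 0.181 in the vaseline libraries, 0.811, 1.13 and 5.69 under imiquimod and 1.84, 0.603 and 1.92 under imiquimod with XYF. Both ratios were lower in every vaseline library than in any imiquimod library. The 6 neutrophil markers, none of them at 0 throughout, were also highest in IMQ + H2O replicate 3, summing to 16.7 to 19.8 CPM under vaseline, 51.5, 57.1 and 145 CPM in the IMQ + H2O libraries and 66.2 to 94.9 CPM with XYF, and their part in the result was not tested.

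The second comparison asked whether XYF altered envelope genes under imiquimod. None of the 40 members tested was called, against 0.0281% of all genes (5 of 17793, all higher), and none had an unadjusted p under 0.05 by edgeR, where 5.43% of all genes did. DESeq2 called none either. Over the 14 Lce1 genes the estimates of IMQ + XYF against IMQ + H2O ran from -0.018 to 0.31, with SEs of 0.49 to 0.62. Estimates were -0.49 ± 0.43 for Sprr1b, -0.14 ± 0.38 for Sprr1a, 0.0062 ± 0.39 for Lor, -0.0018 ± 0.45 for Kprp and 0.0044 ± 0.33 for Crct1. These intervals do not show that the groups were alike: the 95% interval was -1.52 to 0.54 for Sprr1b, -0.91 to 0.92 for Lor and -0.86 to 1.48 for Lce1m.

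Ivl had the lowest unadjusted p of any member, 0.0711, with a log2 fold change of -0.21 ± 0.10 (95% interval -0.44 to 0.024, adjusted p = 0.974). It was the single member whose groups did not overlap, with all 3 IMQ + XYF libraries below all 3 IMQ + H2O libraries, as in 4.68% of all genes tested. No member had all IMQ + XYF libraries above, as 5.99% of all genes did. The 9 tested Sprr2 genes other than the Sprr2a genes all had estimates below 0, from -1.09 for Sprr2i to -0.24 for Sprr2g, whereas Sprr2a1, Sprr2a2 and Sprr2a3 stood at 0.37 ± 0.37, 0.38 ± 0.37 and 0.57 ± 0.39. Both directions rested on single libraries. Without IMQ + H2O replicate 3, 7 of those 9 estimates were above 0 and their median moved from -0.53 to 0.44. Without IMQ + XYF replicate 2, Sprr2a1 moved to -0.16, Sprr2a2 to -0.15 and Sprr2a3 to 0.014. The Lce1 estimates were also turned: 13 of 14 were above 0 with all libraries, 0 of 14 without IMQ + H2O replicate 3 and 1 of 14 without IMQ + XYF replicate 2.

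Within the Sprr2 family, IMQ + XYF replicate 2 differed from all other libraries. Summed CPM of Sprr2a1 and Sprr2a3 was 68.2, 21.3 and 72.8 CPM in the VAS + H2O libraries, 636, 531 and 869 CPM in those of IMQ + H2O and 587, 1431 and 628 CPM in those of IMQ + XYF. That of the 10 other Sprr2 genes was 16.1, 15.1 and 16.3 CPM in the VAS + H2O libraries, 171, 158 and 592 CPM in those of IMQ + H2O and 253, 179.9 and 205 CPM in those of IMQ + XYF. The ratio of the former to the latter was 7.95 in IMQ + XYF replicate 2 and between 1.42 and 4.47 in the other 8 libraries. The vaseline group was even in the 10 other genes, whereas VAS + H2O replicate 2 had less than the rest in Sprr2a1 and Sprr2a3.

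**Figure D4:**
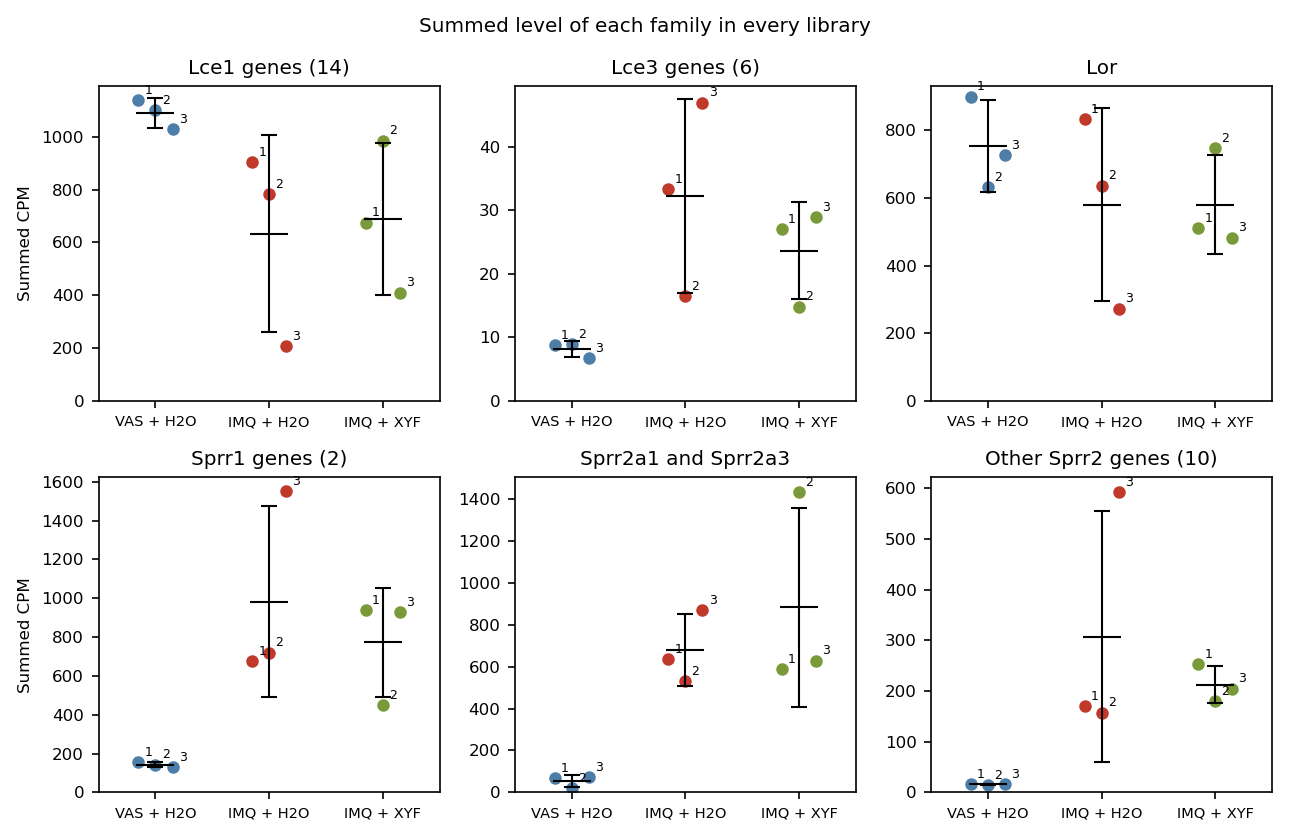
Summed CPM (y axis, from 0) of 5 sets of genes and of Lor in each library, by group (x axis). Points are libraries with replicate numbers, and bars are means ± SD (n = 3). IMQ + H2O replicate 3 is lowest in the Lce1 and Lor panels and highest in the Sprr1 and other Sprr2 panels, and IMQ + XYF replicate 2 is highest in the panel of Sprr2a1 and Sprr2a3.

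The remaining named members had estimates within 2 SEs of 0 for XYF against water. They included -0.49 ± 0.41 for Sprr2d, -0.55 ± 0.56 for Sprr2h, -0.67 ± 0.82 for Sprr2f and -0.50 ± 0.61 for Sprr2b. Among Lce3 genes they were -0.55 ± 0.33 for Lce3c, -0.51 ± 0.59 for Lce3d, -0.46 ± 0.40 for Lce3e and -0.12 ± 0.45 for Lce3f. Sprr4 had the largest positive estimate, 0.63 ± 0.34 (95% interval -0.18 to 1.44), and its 3 IMQ + XYF libraries were close together.

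Epidermis from IMQ + XYF was finally compared with VAS + H2O, sharing the vaseline libraries with the first comparison. Of 40 members tested, 18 rose and 1 fell, against 7.64% of all 17954 genes called in either direction, 4.58% called higher and 3.05% called lower. In 20 members the groups did not overlap and IMQ + XYF was higher, as in 25.1% of all genes tested. All 12 tested Sprr2 genes rose, with estimates from 2.97 to 5.599, as did both Sprr1 genes and 4 of 6 Lce3 genes. Sprr2d had the smallest SE of the Sprr2 genes, at 3.83 ± 0.15, adjusted p = 0.0001096, and its 3 IMQ + XYF libraries were close together. Sprr2j-ps was called here at 4.20 ± 1.08, adjusted p = 0.0283 and Sprr2k at 3.39 ± 1.03, adjusted p = 0.0491, both from vaseline libraries of which 2 of 3 held no count. DESeq2 did not call Sprr2j-ps (adjusted p = 0.0853), and both genes were called in 1 of 6 fits that left out 1 library, the one without VAS + H2O replicate 3. There their estimates were 9.57 and 7.40, and without VAS + H2O replicate 1 they were 3.54 and 2.71. The estimate of Sprr2b was 3.02 without IMQ + XYF replicate 2, and that of Sprr2f 6.25 without VAS + H2O replicate 3. As in the first comparison, Sprr2b, Sprr2f, Sprr2j-ps and Sprr2k entered the test through their imiquimod libraries. Lce3a and Lce3b, neither of them called, reached the filter in 3 IMQ + XYF libraries and 1 VAS + H2O library. Of the 34 members that reached the filter in all 3 VAS + H2O libraries, 15 were called. Sprr1b rose by 2.69 ± 0.37 (adjusted p = 0.00334) and Sprr1a by 2.18 ± 0.30 on the log2 scale (adjusted p = 0.00334).

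Ivl was 0.90 ± 0.12, adjusted p = 0.00285 against vaseline and missed the fold limit. Lce3d had 2.18 ± 0.42, adjusted p = 0.0102 and Lce3c had 1.08 ± 0.24, adjusted p = 0.0166, a call kept in 2 of 6 fits that left out 1 library. Lce1m was the member that fell, at -1.001 ± 0.26, adjusted p = 0.0302, just past the fold limit, and DESeq2 did not call it because its estimate there was -0.9967. It was called in 2 of the 6 fits that left out 1 library. The 14 Lce1 estimates all lay below 0, from -1.001 to -0.084, with a median of -0.64 against -0.038 over all genes tested. In 5 of the 14 the groups did not overlap, where 22.4% of all genes were lower without overlap. Without IMQ + XYF replicate 2, 6 Lce1 genes were called lower and the median was -0.99. In that fit 1189 of all 18590 genes tested were called in either direction. The other fits that left out 1 library called 0 or 1 Lce1 gene. Without IMQ + XYF replicate 3 the Lce1 median was -0.36 and 1 estimate was above 0. Lor had -0.37 ± 0.20, adjusted p = 0.206, Kprp -0.43 ± 0.22, adjusted p = 0.185 and Crct1 -0.088 ± 0.16, adjusted p = 0.7096.

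At the low end, Lelp1 was not detected. It had 0 counts in all 9 libraries, which allows at most 0.0463 to 0.0990 CPM per library. Sprr3, a gene of internal squamous epithelia, had 4 counts in IMQ + H2O replicate 3 and 0 in the others. Sprr2c-ps had 4 counts in IMQ + XYF replicate 1 and 0 in the others, so that each passed the floor in a single library. Of the 23 other genes within the same 938.8 kb, 12 were tested. Of these, 1 was called under imiquimod against vaseline, 1 under XYF against vaseline and 0 under XYF against imiquimod alone. The share of all genes called was 7.68%, 7.64% and 0.0281% in the same order.

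Genes that act with the members were taken from lists of the envelope pathway. All 3 transglutaminases that cross-link envelope proteins rose under imiquimod. Tgm1, the membrane-bound enzyme of the upper epidermis, went from 172 ± 11.4 CPM under vaseline (SD, n = 3) to 368 ± 24.9 in IMQ + H2O and 323 ± 16.02 with XYF, a log2 fold change of 1.08 ± 0.088, adjusted p = 0.003501 in the first comparison. Tgm3 and Tgm5 had 1.17 ± 0.24, adjusted p = 0.0184 and 1.02 ± 0.11, adjusted p = 0.00575. None of the 3 was called between XYF and water, and against vaseline Tgm3 alone was called in IMQ + XYF (1.04 ± 0.18, adjusted p = 0.00756), the others having 0.90 ± 0.076, adjusted p = 0.000896 and 0.93 ± 0.077, adjusted p = 0.000889.

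Of 13 other envelope and suprabasal genes, 1 rose under imiquimod and none fell. It was Krt1, a keratin of the suprabasal layers, at 1.45 ± 0.21, adjusted p = 0.008903. Cnfn, which encodes the envelope protein cornifelin and is named after its values were seen, missed the fold limit at 0.91 ± 0.12, adjusted p = 0.00806. None of 5 tested genes of the S100-fused family in the same complex was called, with Flg at 0.16 ± 0.56, adjusted p = 0.861 and Flg2 at -0.88 ± 0.45, adjusted p = 0.198. Of 12 tested S100 genes of the complex, 3 rose (S100a8, S100a9 and S100a6) and 2 fell (S100a3 and S100a4). S100a8, a neutrophil and keratinocyte alarmin, had 8.09 ± 1.15, adjusted p = 0.008904. Its libraries were very uneven in IMQ + H2O, at 409 ± 496 CPM (SD, n = 3), against 1.46 ± 0.587 CPM in VAS + H2O. No gene of these 3 lists was called between XYF and water.

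None of 28 regulators of cornification was called in any of the 3 comparisons by edgeR. The genes given next were picked after their values were seen. Some had adjusted p-values under 0.05 with changes below the fold limit between IMQ + H2O and VAS + H2O. They included Cebpb (0.88 ± 0.078, adjusted p = 0.00372), Nfe2l2 (0.91 ± 0.11, adjusted p = 0.00688), Grhl3 (0.48 ± 0.11, adjusted p = 0.0261) and Gata3 (-0.73 ± 0.094, adjusted p = 0.007696). Among genes of the AP-1 complex, Fosl1 had 0.95 ± 0.47, adjusted p = 0.188, Fos -0.63 ± 0.24, adjusted p = 0.108 and Junb 0.047 ± 0.15, adjusted p = 0.853, and Pou2f3, an octamer-binding factor of epidermis, had -0.24 ± 0.13, adjusted p = 0.233.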

How the data were processed

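RNA sequencing of ear epidermal sheets gave 9 libraries in 3 groups of 3, grouped by their labels. The authors deposited a table of raw counts per gene for 52550 Ensembl genes. Their processing notes name FastQC, STAR 2.5, Cuffnorm and DESeq 1.22.1, and their methods GRCm38 with Ensembl release 90. How reads were counted, and with which strand setting, is not given in the sources used here.

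Counts were tested with edgeR 4.0.16 in R 4.3.3 (TMM factors, filterByExpr, glmQLFit and glmQLFTest), each pair of groups on its own 6 libraries, with Benjamini-Hochberg adjustment over all genes tested. Each SE was the size of the log2 fold change divided by the square root of the F statistic of that test. Intervals were built from these SEs. Log2 CPM used a prior count of 2. DESeq2 1.42.0 and the other settings in the closing section were alternatives. The scripts were tested on simulated counts. Floors cover counting error only.

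Members named with values were the 5 single genes, up to 20 called in a comparison and the top 2 per kilobase of each family. Other members appear in counts and ranges. Members and lists were chosen with earlier results of these data known. Gene positions came from GENCODE M21, and promoters from RefSeq. No protein sequence was used.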

Additional observations from a re-analysis of the deposited data

How the results depend on the processing

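Members called were 18 in IMQ + H2O against VAS + H2O, all higher, and 19 in IMQ + XYF against VAS + H2O, 18 higher and 1 lower. DESeq2, RLE size factors, library totals, both other low-count filters, one fit of all 9 libraries and no fold limit gave 15 to 19 and 14 to 20. Testing against a log2 fold change of 1 gave 3 and 8. Leaving out 1 library in turn gave 10 to 18 and 15 to 22. No alternative called a member between IMQ + XYF and IMQ + H2O. Same-numbered libraries had correlations of their deviations of -0.13 to 0.11. With 3 libraries per group, these values cannot show whether same-numbered libraries were handled together. The fit with the replicate block called 16, 0 and 17 members in the 3 comparisons, and 0 genes of any kind between XYF and water under imiquimod.

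Over all genes, no fold limit gave 3986 and 5152 calls against vaseline (IMQ + H2O, then IMQ + XYF), and the test against a log2 fold change of 1 gave 65 and 162. Leaving out 1 library gave 711 to 1314 for IMQ + H2O against VAS + H2O, from 1383. For IMQ + XYF against VAS + H2O it gave 996 to 1350, from 1371. Library totals shifted the median of all genes from -0.029 to -0.12 there and split the calls 545 higher to 911 lower, against 656 to 727. The 5 calls between IMQ + XYF and IMQ + H2O became 129 by DESeq2, 1 with all 9 libraries, 0 in the test against a log2 fold change of 1, and 0 to 5 on leaving out 1 library. The cause of these shifts was not tested.

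Directions turned mainly in IMQ + XYF against IMQ + H2O, where none was called. Lor stood at -0.0024 with RLE factors and -0.0003 with all 9 libraries. Crct1 stood at -0.0025 by DESeq2, -0.0044 with RLE factors, -0.0015 with at least 10 counts in every library and -0.0024 with all 9 libraries. Kprp stood at 0.020 with library totals. Under the replicate block Kprp stood at 0.13, Sprr2f at 0.040, Sprr2g at 0.26 and Sprr2j-ps at 0.12. In IMQ + H2O against VAS + H2O, Sprr4 stood at -0.071 with library totals. Leaving out 1 library gave log2 ranges of -0.34 to 0.35 for Lor, -0.16 to 0.59 for Sprr2a1, -0.15 to 0.59 for Sprr2a2, -0.81 to 0.15 for Sprr2d, -0.90 to 0.71 for Sprr2e, -1.13 to 1.03 for Sprr2f, -0.64 to 1.07 for Sprr2g, -0.87 to 0.34 for Sprr2h, -1.51 to 0.44 for Sprr2i, -0.98 to 1.15 for Sprr2j-ps, -0.40 to 0.35 for Sprr1a, -0.27 to 0.50 for Lce1a1, -0.25 to 0.52 for Lce1c, -0.39 to 0.25 for Kprp, -0.89 to 0.26 for Lce3d, -0.43 to 0.23 for Lce3f, -0.29 to 0.37 for Crct1 and -0.092 to 0.71 for Lce1m in IMQ + XYF against IMQ + H2O. It gave -0.41 to 0.42 for Sprr4 and -0.43 to 0.19 for Crct1 in IMQ + H2O against VAS + H2O, and -0.23 to 0.044 for Crct1 in IMQ + XYF against VAS + H2O.

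Groups of 3 libraries and the spread in the imiquimod groups set the precision of every estimate. Members near the floor, such as Sprr2k, Sprr2j-ps, Lce3a and Lce3b, rest on few counts. The deposited counts do not show how reads shared between near-identical genes were split.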
